A study of Mus musculus with 6 samples.

Results

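The genes described here encode nuclear subunits of complex III, of complex IV and of the ATP synthase of mitochondria, with cytochrome c, measured in isolated mouse pancreatic islets after CMPF or vehicle. They were chosen by symbol in the platform annotation: symbols that start with Uqcr, with Cox followed by 4, 5, 6, 7 or 8, or with Atp5, plus Cyc1 and Cycs. This gave 44 of the 18193 genes tested, with 9 in complex III, 17 in complex IV, 17 in the ATP synthase and 1 for cytochrome c. Each gene is represented by 1 set of short probes, the brightest of its single-gene probe sets when the 6 arrays are averaged. The CMPF group was 3 arrays of islets given CMPF at 200 uM for 24 hours. CMPF is a circulating metabolite of furan fatty acids. The vehicle group was 3 arrays of islets given 0.1% ethanol for 24 hours. All islets came from male CD1 mice, an outbred stock, at an age of 8 weeks, and had rested overnight in RPMI medium, and the labels name no genetic change. Nothing in the labels ties the replicate numbers to separate mice or islet isolations, so each p-value reflects only how far these 6 samples scatter, and that scatter may be technical.

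Complex III passes electrons from ubiquinol to cytochrome c, and complex IV passes them from cytochrome c to oxygen, and both pump protons out of the mitochondrial matrix. The ATP synthase lets the protons flow back and makes ATP. In beta cells a rise of ATP after glucose closes potassium channels and leads to insulin release, so these complexes stand between glucose oxidation and secretion. The subunits that mitochondrial DNA encodes were not analysed here. The array values are log2 signals without calls of presence, so low signal does not say whether a transcript was there, and in whole islets fewer cells of a type and less RNA per cell cannot be told apart.

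The arrays resembled each other closely, with array medians between 5.08 and 5.15 and correlations of 0.989 or more between any 2 arrays across genes, which are not independent replicates. The label of islets fits the markers of beta cells, which had a median at the 95.2nd percentile of all genes and averaged 11.09, 10.62 and 10.57 on the CMPF arrays and 11.02, 10.65 and 10.77 on the vehicle arrays. Acinar cell markers, genes of the enzyme-secreting pancreas, had a higher median, at the 97.9th percentile, so this rank does not set beta cells apart. They averaged 10.87, 11.64 and 10.52 with CMPF and 10.61, 11.61 and 9.63 with vehicle, and lay highest on both arrays numbered 2. Over the 23 acinar markers measured the median difference was 0.43, with 15 higher and 1 lower in all 3 same-numbered pairs, and 0 without overlap between the groups. The 3' minus 5' signal of the Gapdh control was 0.017, 0.017 and -0.016 with CMPF and -0.027, -0.089 and -0.045 with vehicle. The groups did not overlap in the Gapdh control. In the Actb control they overlapped, at 0.841, 0.741 and 0.761 with CMPF and 0.829, 0.703 and 0.809 with vehicle. The part of RNA quality in the results below was not tested. With the acinar mean of each array as a covariate, limma likewise called 0 of the 44 genes below.

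With CMPF none of the 44 genes differed from vehicle beyond the spread between arrays. Limma, adjusted over all genes, called 0 of the 44 (smallest adjusted p = 0.99995), and it called 0 of all genes (0%) both without and with the replicate number as a block. At an unadjusted limma p under 0.05 it listed 0 of the 44, where 1.13% of all genes were listed, and with the block 1 of the 44, Cox7c, where 3.8% were listed. For 0 of the 44 did the CMPF and vehicle arrays not overlap, against 4.52% of all genes, with 2.41% higher and 2.11% lower with CMPF. In 5 of the 44 genes CMPF was higher in all 3 pairs, and in 5 it was lower in all 3, which is 11.4% each. These shares are near those over all genes, 11.8% higher and 11.1% lower. The median difference, CMPF minus vehicle in log2 units throughout, was -0.01 over the 44 genes and 0.0018 over all genes. Over genes above the median level it was -0.016, with 57.7% negative, against 49.3% negative over all genes.

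Differences of these genes were measured more precisely than those of most genes. Of the 44, 38 lay above the median level of all genes, with a median at the 98.3rd percentile, and the median standard error of a difference was 0.0863, against 0.116 for all genes. The 95% interval of the difference lay wholly inside 0.3 log2 units either way (1.23-fold) for 30 of the 44 genes (68.2%), against 30.9% of all genes and 40.4% of genes above the median level. It lay inside 0.5 log2 units (1.41-fold) for 41 of the 44 (93.2%) and for 81.9% of all genes. The 3 genes whose interval reached further were Cox7b2, Cox7c and Cox8c, all of complex IV.

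**Figure D1:**
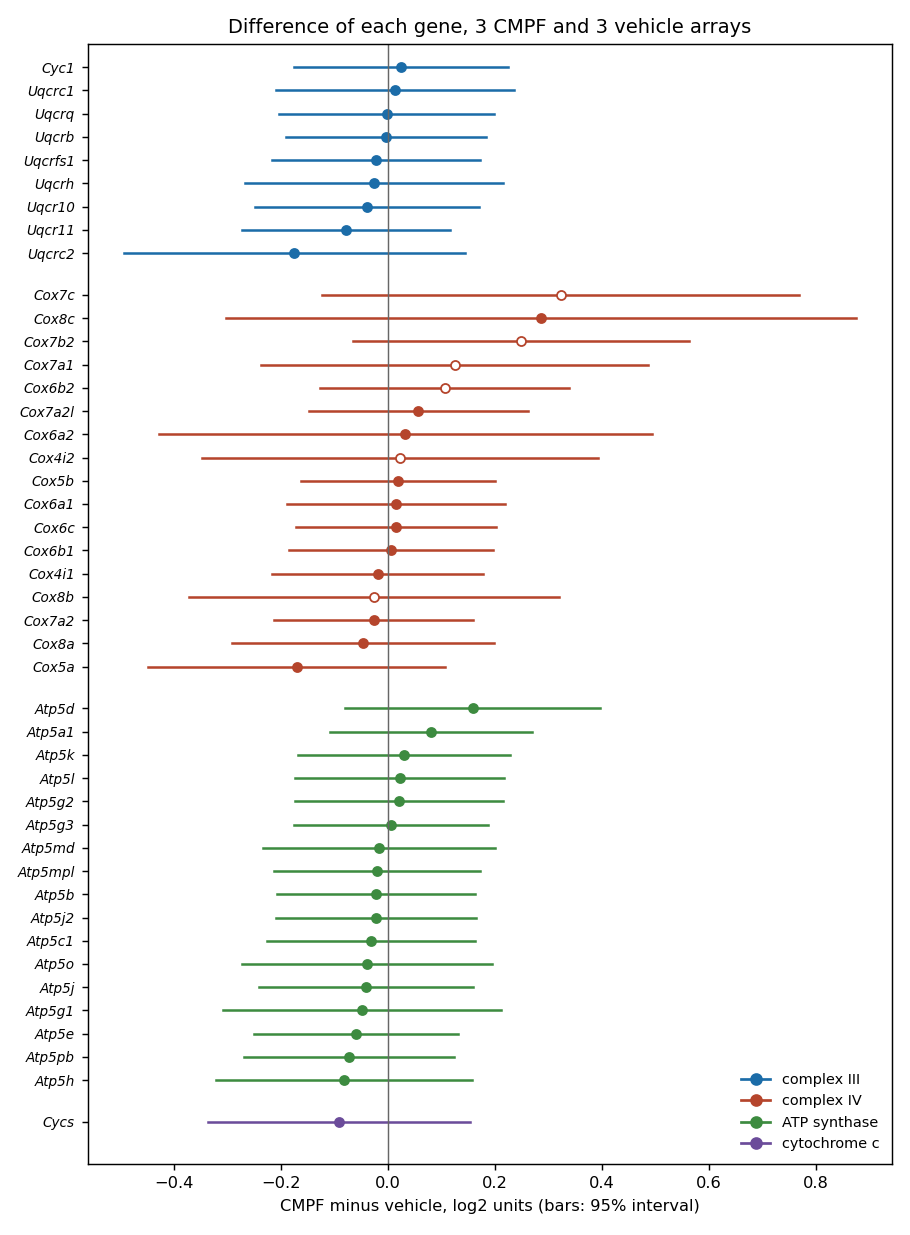
Difference of each gene on the x axis (CMPF minus vehicle, log2 units, mean of 3 arrays a group) with its 95% interval from limma as a bar, genes grouped by complex on the y axis. Open points are genes below the median level of all genes. Every interval holds 0, and the widest are those of Cox8c, Cox6a2 and Cox7c.

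Promoter sequence was not used in the choice by symbol, and each motif searched was missing from the majority of the start sites. Nuclear respiratory factor 1 (NRF1), ETS family factors such as GABP, SP1 and YY1 are known to bind promoters of respiratory chain genes in mammals. RefSeq promoters (build GRCm38.p6, 250 bases before to 50 after a start site) were matched by symbol for 33 of the 44 genes, with 36 start sites. The NRF1 core motif, a palindrome of 10 bases that starts with GCGCATG, was found at 4 of the 36 (11.1%), against 0.971% of all 32851 promoters and 1.54% of those of the genes tested. Those 7 bases alone, which overlap the core, were a shorter NRF1 motif, found at 22.2%, against 3.91% and 5.41%, and the ETS motif CCGGAAG at 30.6%, against 8.86% and 13.0%. The SP1 motif GGGCGG was found at 36.1%, against 35.7% and 52.3%, and the YY1 motif AAGATGG at 11.1%, against 6.34% and 6.38%. Both strands were searched, and a match is a description of the letters and not a site. Of the 5 dim genes with a promoter, Cox6b2, Cox7a1, Cox7b2, Cox7c and Cox8b, 0 held the ETS or either NRF1 motif. Of the 31 start sites of bright genes, 35.5% held the ETS motif, 25.8% the shorter NRF1 motif and 12.9% the core. SP1 was found at 2 of the 5 dim start sites (40%) and at 35.5% of the bright ones. YY1 was found at 1 of the 5 dim start sites (20%) and at 9.68% of the bright ones. The dim start site with YY1 was that of Cox7c, which counts as dim only by its probe sets. Promoters of the dim genes held a median of 10 CG pairs, against 20 for the bright genes.

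Shown first are promoters with the NRF1 core, 1 from each complex, because all lie above the median level of all genes and none was called. Then follow the promoters of the ubiquitous and the muscle isoform of subunit 8 of complex IV, which ranked far above and far below the median level. Capitals mark the NRF1, ETS, SP1 and YY1 motifs on either strand. Uqcrc1 was read at chr9:108936398-108936697, plus strand, Cox6a1 at chr5:115348909-115349208, minus strand, Atp5g2 at chr15:102670998-102671297, minus strand, Cox8a at chr19:7217567-7217866, minus strand, and Cox8b at chr7:140900397-140900696, minus strand.
Uqcrc1: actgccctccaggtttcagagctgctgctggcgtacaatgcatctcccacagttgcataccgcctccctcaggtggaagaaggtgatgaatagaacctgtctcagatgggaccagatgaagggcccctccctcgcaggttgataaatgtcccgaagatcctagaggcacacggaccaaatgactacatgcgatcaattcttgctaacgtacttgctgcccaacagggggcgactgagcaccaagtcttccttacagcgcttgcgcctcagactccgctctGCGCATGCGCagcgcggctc
Cox6a1: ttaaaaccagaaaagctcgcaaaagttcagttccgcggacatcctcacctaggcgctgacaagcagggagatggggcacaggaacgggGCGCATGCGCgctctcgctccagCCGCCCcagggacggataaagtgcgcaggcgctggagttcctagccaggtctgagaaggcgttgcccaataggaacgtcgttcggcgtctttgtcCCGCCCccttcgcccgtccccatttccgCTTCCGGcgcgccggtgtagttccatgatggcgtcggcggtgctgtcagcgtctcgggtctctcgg
Atp5g2: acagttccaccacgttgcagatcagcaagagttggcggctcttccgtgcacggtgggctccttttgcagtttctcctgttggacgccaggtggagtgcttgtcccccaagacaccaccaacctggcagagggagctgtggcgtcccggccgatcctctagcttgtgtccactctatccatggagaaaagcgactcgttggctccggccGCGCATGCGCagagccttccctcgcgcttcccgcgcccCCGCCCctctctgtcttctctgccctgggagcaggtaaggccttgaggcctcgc
Cox8a: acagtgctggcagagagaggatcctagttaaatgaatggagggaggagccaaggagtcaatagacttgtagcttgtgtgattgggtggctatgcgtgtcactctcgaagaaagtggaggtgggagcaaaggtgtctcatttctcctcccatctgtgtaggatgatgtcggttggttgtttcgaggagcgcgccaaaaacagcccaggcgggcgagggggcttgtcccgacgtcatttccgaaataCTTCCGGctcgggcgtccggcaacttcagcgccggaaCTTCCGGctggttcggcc
Cox8b: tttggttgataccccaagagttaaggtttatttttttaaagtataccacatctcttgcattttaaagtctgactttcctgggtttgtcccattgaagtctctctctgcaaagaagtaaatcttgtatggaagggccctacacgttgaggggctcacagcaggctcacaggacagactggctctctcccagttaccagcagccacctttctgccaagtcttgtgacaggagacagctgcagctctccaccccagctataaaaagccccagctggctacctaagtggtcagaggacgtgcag
The Cox8a promoter held 2 ETS motifs and 19 CG pairs, and the Cox8b promoter held none of the motifs and 2 CG pairs.

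**Figure D2:**
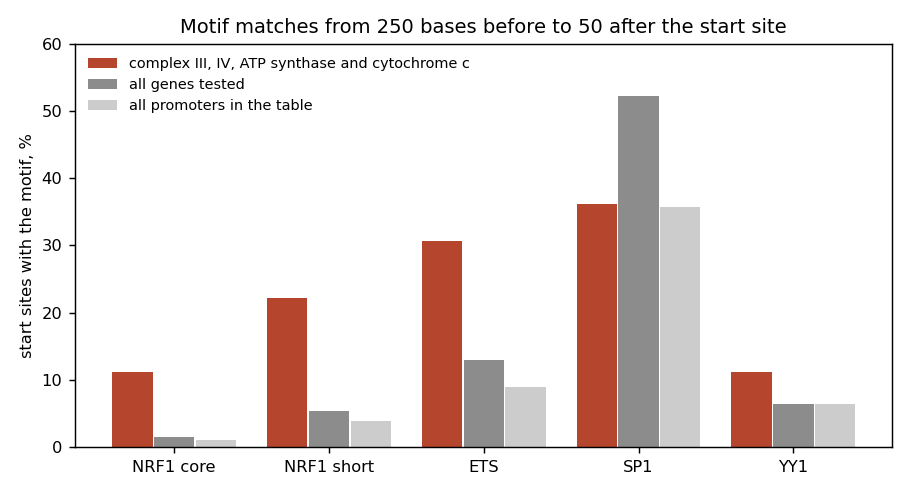
Share of start sites with each motif in percent on the y axis, by motif on the x axis, for the 36 start sites of the complex III, IV, ATP synthase and cytochrome c genes, for the genes tested and for all promoters of the table. The NRF1 and ETS bars of the complex III, IV, ATP synthase and cytochrome c genes are taller than those of the genes tested, as is YY1 at 11.1% against 6.38%, and SP1 is at 36.1% against 52.3%.

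In complex III, 7 of 9 genes had a negative difference and the median was -0.02, but 0 were called and every interval held 0. Genes above the median level, where all of complex III lay, were 57.7% negative with a median of -0.016. The redox subunits gave differences close to 0. Cyc1, cytochrome c1, read 10.67, 10.57 and 10.53 with CMPF and 10.62, 10.56 and 10.52 with vehicle, a difference of 0.02 (SE 0.0852). The arrays lay in the same order in both groups, and CMPF was higher in all 3 pairs by at most 0.05. Uqcrfs1, the Rieske iron-sulfur protein, read 10.90, 11.05 and 10.98 with CMPF and 10.99, 11.02 and 10.99 with vehicle, a difference of -0.02 (SE 0.0831). CMPF 1 was its lowest array and CMPF 2 its highest, so the vehicle arrays lay inside the CMPF range.

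The core proteins, which hold complex III together on the matrix side, differed more from array to array. Uqcrc2 read 11.03, 11.03 and 11.45 with CMPF and 11.23, 11.38 and 11.42 with vehicle, a difference of -0.18 (SE 0.136; limma adjusted p = 0.99995, 3 arrays each). Its arrays CMPF 1 and CMPF 2 were the lowest of the 6, while CMPF 3 was the highest, so the groups overlapped. The difference was -0.32 without CMPF 3, -0.11 without CMPF 1 and -0.10 without CMPF 2. Uqcrc1, whose promoter is shown above, read 10.50, 10.63 and 10.38 with CMPF and 10.50, 10.53 and 10.44 with vehicle, a difference of 0.01 (SE 0.0948). Here CMPF 3 was the lowest array and CMPF 2 the highest.

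Of the small subunits, Uqcr11 read 11.19, 11.33 and 11.25 with CMPF and 11.31, 11.32 and 11.37 with vehicle, a difference of -0.08 (SE 0.0829). CMPF 1 and CMPF 3 lay under all vehicle arrays, and CMPF 2 lay among them. Uqcr10 read 10.80, 10.64 and 10.78 with CMPF and 10.82, 10.70 and 10.82 with vehicle, a difference of -0.04 (SE 0.0894), lower in all 3 pairs. Both arrays numbered 2 were its lowest. The other small subunits, the hinge protein Uqcrh and the ubiquinone-binding proteins Uqcrb and Uqcrq, differed by -0.03 to -0.0024.

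In complex IV, 12 of 17 genes had a positive difference and the median was 0.02. That is 70.6% positive, against 50.7% over all genes. Of the 11 complex IV genes above the median level 7 were positive (63.6%), against 42.3% of all genes above it. Of the 6 dim ones 5 were positive. For the subunits found in all tissues the differences were small. Cox4i1, the common form of subunit 4, read 11.95, 12.08 and 12.03 with CMPF and 12.02, 12.10 and 12.01 with vehicle, a difference of -0.02 (SE 0.0843). Cox6a1, the liver form of subunit 6a, whose promoter with an NRF1 core is shown above, read 13.65, 13.56 and 13.60 with CMPF and 13.67, 13.50 and 13.61 with vehicle, a difference of 0.01 (SE 0.0871). On both genes the groups overlapped, and for Cox6a1 array 1 was highest and array 2 lowest in each group. Cox7a2, the liver form of subunit 7a, read 12.92, 12.83 and 12.88 with CMPF and 12.93, 12.88 and 12.91 with vehicle, a difference of -0.03 (SE 0.0795), lower in all 3 pairs by at most 0.05.

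Cox8a, the ubiquitous form of subunit 8, read 11.72, 11.44 and 11.62 with CMPF and 11.71, 11.54 and 11.67 with vehicle, a difference of -0.05 (SE 0.104). Both arrays numbered 2 were the lowest of their group. Cox7a2l, which in mouse helps join complexes III and IV into supercomplexes, read 11.13, 10.98 and 10.94 with CMPF and 10.97, 10.97 and 10.94 with vehicle, a difference of 0.06 (SE 0.0872). It was higher in all 3 pairs, by 0.16 in pair 1 and by 0.0071 and 0.0024 in pairs 2 and 3. Cox5b, Cox6b1 and Cox6c, further subunits of the common enzyme, differed by 0.0056 to 0.02.

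Cox5a, a matrix-side subunit, had the most negative difference of complex IV. It read 11.90, 11.82 and 12.22 with CMPF and 12.13, 12.17 and 12.16 with vehicle, a difference of -0.17 (SE 0.118; limma adjusted p = 0.99995). The vehicle arrays lay within 0.04 of each other, CMPF 1 and CMPF 2 lay below them and CMPF 3 above. In Uqcrc2 the same CMPF arrays were low and high. Markers of stellate and mesenchymal cells averaged 8.43, 8.46 and 9.68 with CMPF and 8.86, 9.04 and 9.38 with vehicle. There too CMPF 1 and CMPF 2 were the lowest arrays and CMPF 3 the highest. The part of these cells in the Uqcrc2 and Cox5a values was not tested. The Cox5a difference was -0.29 without CMPF 3 and -0.09 without CMPF 2.

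The tissue-restricted isoforms of complex IV were mostly dim, and levels of different probe sets cannot be set against each other beyond their rank among genes. Cox4i2, the lung form of subunit 4, lay at the 41.1st percentile of all genes and read 6.09, 5.50 and 5.66 with CMPF and 5.71, 5.84 and 5.63 with vehicle, a difference of 0.02 (SE 0.158). The muscle forms Cox7a1 and Cox8b lay at percentiles 26.7 and 27.1. Cox7a1 read 4.45, 4.64 and 5.05 with CMPF and 4.61, 4.53 and 4.63 with vehicle, a difference of 0.12 (SE 0.154), with CMPF 3 the highest array and CMPF 1 the lowest. Cox8b, whose promoter is shown above, read 4.73, 4.56 and 4.71 with CMPF and 4.56, 4.50 and 5.01 with vehicle, a difference of -0.03 (SE 0.147). Its highest array was vehicle 3, and the groups overlapped.

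Cox6a2, the heart and skeletal muscle form of subunit 6a, stood apart from Cox7a1 and Cox8b by its rank, at the 70.3rd percentile. It read 7.76, 8.19 and 7.64 with CMPF and 7.52, 8.14 and 7.83 with vehicle, a difference of 0.03 (SE 0.197). Both arrays numbered 2 were high, as they were for the acinar markers. Adjusted for the acinar mean, Cox6a2 differed by -0.064. Contractile and other muscle genes had a median at the 16.2nd percentile over the 14 measured, but Acta1, skeletal actin, lay at the 66.9th and Des, desmin, at the 65th. Acta1 read 7.74, 8.80 and 6.81 with CMPF and 7.43, 8.04 and 6.89 with vehicle, also highest on both arrays numbered 2, and its part in the Cox6a2 values was not tested.

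Of the testis forms, Cox8c had the widest interval of the 44 genes. It lay at the 84.2nd percentile and read 9.56, 9.02 and 8.76 with CMPF and 8.91, 8.41 and 9.16 with vehicle, a difference of 0.29 (SE 0.251). It was 0.061 without CMPF 1, 0.077 without vehicle 2, 0.45 without vehicle 3 and 0.46 without CMPF 3. Its second probe set read close to 6.93 and differed by -0.04, so its probe sets did not tell the same direction. Cox7b2 read 3.58, 3.51 and 3.20 with CMPF and 3.33, 3.01 and 3.20 with vehicle, a difference of 0.25 (SE 0.134) at the 9.04th percentile. CMPF 1 and CMPF 2 were its highest arrays and CMPF 3 equalled vehicle 3. Cox6b2 lay at the 34.9th percentile and differed by 0.11 (SE 0.0992).

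Cox7c, a subunit known from all tissues, was represented only by probe sets at the bottom of the scale, at the 8.3rd percentile. It read 3.35, 3.79 and 3.10 with CMPF and 3.06, 3.31 and 2.89 with vehicle, a difference of 0.32 (SE 0.190; limma adjusted p = 0.99995). It was higher in all 3 pairs, by 0.29, 0.48 and 0.21, and its other probe set was higher in all 3 as well, though it averaged only 2.75. The difference was 0.13 without CMPF 2. With the replicate block its unadjusted p was 0.0094 and its adjusted p 0.979. Signals this low lie below the lower quartile of all genes, 4.53, and cannot be told from background here.

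**Figure D3:**
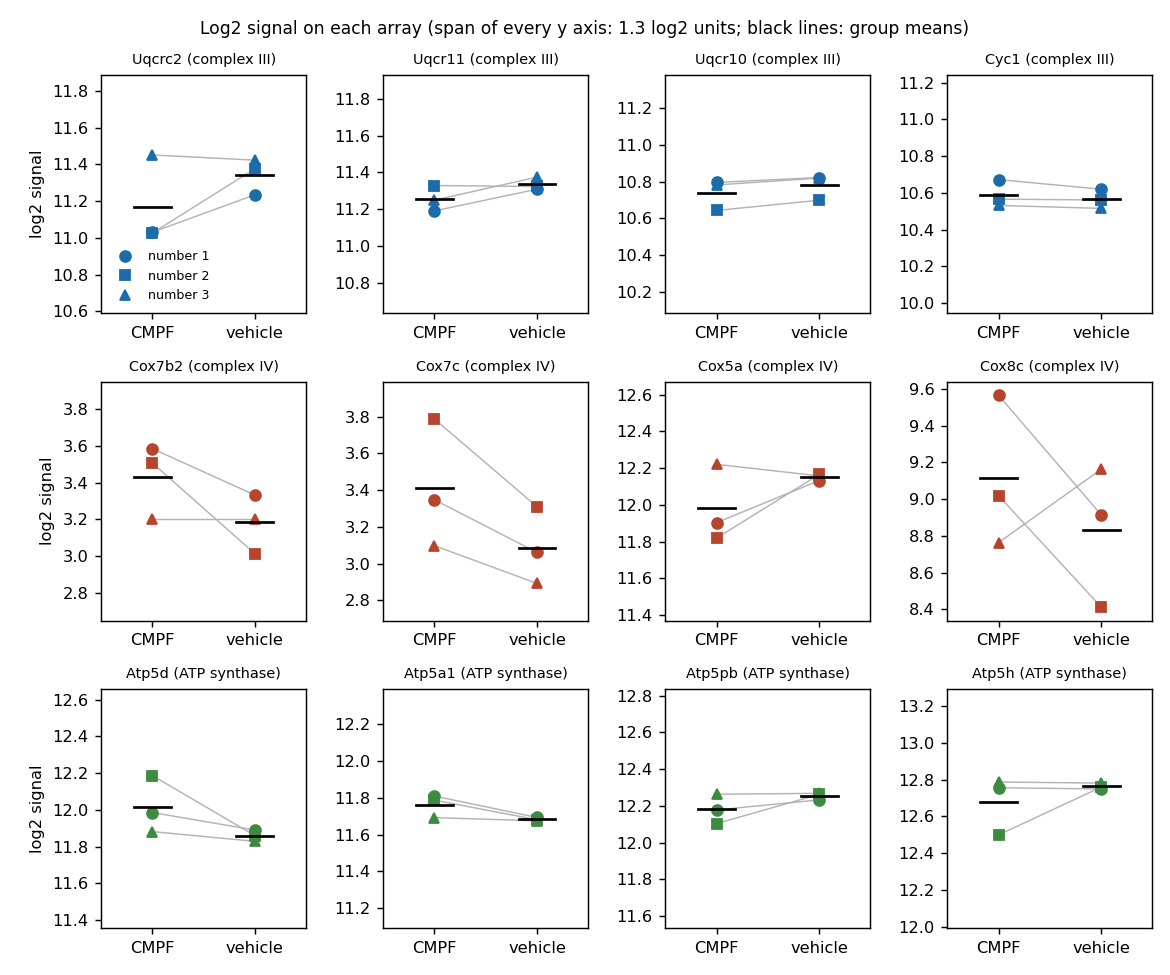
Log2 signal on the y axis for each CMPF and vehicle array, for the 4 genes of each complex with the smallest unadjusted p. Point shapes and grey lines mark same-numbered arrays, black lines the group means. In Uqcrc2 and Cox5a, CMPF 1 and CMPF 2 lie below the vehicle arrays and CMPF 3 does not, and in no panel are the groups apart.

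In the ATP synthase, 11 of 17 genes had a negative difference and the median was -0.02. That is 64.7% negative, near the 57.7% of genes above the median level, whose median was -0.016 and where all 17 lay. The catalytic head held the largest positive differences. Atp5d, the delta subunit of the central stalk, read 11.99, 12.19 and 11.88 with CMPF and 11.89, 11.86 and 11.83 with vehicle, a difference of 0.16 (SE 0.102; limma adjusted p = 0.99995). It was higher in all 3 pairs, by 0.10, 0.33 and 0.05, and CMPF 3 lay just under vehicle 1. The difference was 0.07 without CMPF 2. Its second probe set differed by 0.07, at -0.02, 0.18 and 0.04 in the pairs, and so was not higher in all 3. Atp5a1, the alpha subunit, read 11.81, 11.79 and 11.69 with CMPF and 11.69, 11.68 and 11.68 with vehicle, a difference of 0.08 (SE 0.0807). It too was higher in all 3 pairs, though its other probe sets differed by -0.05 each.

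Atp5b, the catalytic beta subunit, read 12.29, 12.22 and 12.28 with CMPF and 12.28, 12.27 and 12.32 with vehicle, a difference of -0.02 (SE 0.0787). The arrays spanned 0.1 log2 units in all. The stalk subunits Atp5c1 (gamma) and Atp5e (epsilon) differed by -0.03 and -0.06. The 5 genes of the catalytic head lay between -0.06 and 0.16, and none was called.

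The c subunit, which forms the rotating ring, is made by 3 genes for the same mature protein in mammals. Atp5g1 read 11.87, 11.56 and 11.65 with CMPF and 11.85, 11.64 and 11.74 with vehicle, a difference of -0.05 (SE 0.111). Atp5g2, whose promoter is shown above, read 10.94, 11.08 and 11.01 with CMPF and 11.03, 10.97 and 10.96 with vehicle, a difference of 0.02 (SE 0.0831). Atp5g3 read 12.90, 12.95 and 12.91 with CMPF and 12.92, 12.91 and 12.91 with vehicle, a difference of 0.0052 (SE 0.0771). None of the c subunit genes was called, and for Atp5g1 array 1 was highest and array 2 lowest in each group.

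In the peripheral stalk, which holds the head still, Atp5h (subunit d) read 12.76, 12.50 and 12.79 with CMPF and 12.75, 12.76 and 12.78 with vehicle, a difference of -0.08 (SE 0.102). CMPF 2 alone was low, and the other arrays lay within 0.04 of each other. Atp5pb (subunit b) read 12.18, 12.10 and 12.26 with CMPF and 12.23, 12.26 and 12.27 with vehicle, a difference of -0.07 (SE 0.0838), lower in all 3 pairs. Atp5j (factor F6) and Atp5o (OSCP) differed by -0.04 each. The membrane subunits Atp5j2, Atp5k, Atp5l, Atp5md and Atp5mpl lay between -0.02 and 0.03.

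Cycs, cytochrome c, which carries electrons between complexes III and IV and triggers caspases when it leaves mitochondria, read 12.40, 12.25 and 12.57 with CMPF and 12.45, 12.57 and 12.48 with vehicle. The difference was -0.09 (SE 0.105). CMPF 2 was its lowest array and CMPF 3 was level with the highest vehicle array, so the groups overlapped.

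The median difference was -0.02 for complex III, 0.02 for complex IV and -0.02 for the ATP synthase. Within the pairs numbered 1, 2 and 3, the medians were -0.08, 0.03 and -0.0075 for complex III, 0.02, 0.04 and 0 for complex IV, and -0.02, -0.01 and -0.005 for the ATP synthase. Complex III minus complex IV was -0.04 and had the same sign in the 3 pairs, at -0.10, -0.01 and -0.0075 (SD 0.0498). It was 0.0063 without CMPF 1 and 0.0046 without pair 1. Complex IV minus ATP synthase was 0.04, at 0.04, 0.05 and 0.005 in the pairs (SD 0.0241). It was 0.0071 without CMPF 1, 0.012 without pair 1 and 0.014 without vehicle 2. Complex III minus ATP synthase was -0.00023, of mixed sign in the pairs. The median of complex III was 0.01 without CMPF 1 and without pair 1. No test was made on medians of chosen genes. The 6 dim complex IV genes had a median of 0.12 and the 11 bright ones 0.01.

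**Figure D4:**
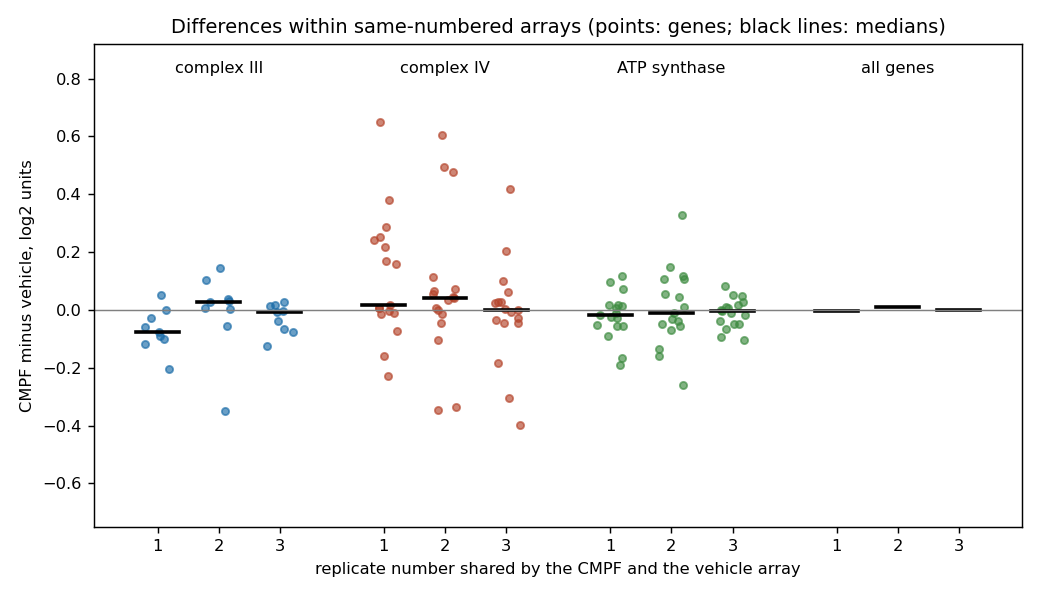
Difference between the CMPF and the vehicle array of 1 number on the y axis (log2 units), by replicate number on the x axis, for the genes of each complex. Black lines are medians, and for all genes only the medians are drawn. The medians of the 3 complexes lie between -0.08 and 0.04, and the widest scatter is in complex IV.

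Probe sets of the same gene often differed. Of the 44 genes, 20 had more than 1 probe set above the median level of all genes, and in 10 of the 20 these probe sets gave differences of both signs. The median gap between the differences of a gene's probe sets was 0.091, near the median standard error of a difference, 0.0863. Such counts were not made over all genes, so this disagreement cannot be called particular to the 44. Uqcrc2 differed by -0.18 on the probe set used above and by 0.0073 on the other, which read 10.97, 11.06 and 11.02 with CMPF and 11.02, 11.00 and 11.01 with vehicle. Cox5a differed by -0.17, 0.04 and -0.14 on its 3 probe sets. The second of these read 11.69, 11.84 and 11.72 with CMPF and 11.73, 11.79 and 11.61 with vehicle, so the low CMPF 1 and CMPF 2 of the first were not seen there.

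For Uqcrb and Atp5o it was the other probe set, not the one used above, that gave the more negative difference. Uqcrb differed by -0.0036 and -0.18, and Atp5o by -0.04 and -0.41. For Atp5o the other probe set read 9.49, 9.76 and 9.99 with CMPF and 10.00, 10.56 and 9.91 with vehicle. CMPF 3 and vehicle 3 were close there, while the arrays numbered 2 lay 0.80 apart.

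The disagreement differed between the array pairs. The highest minus the lowest difference among the probe sets of a gene had a median over the 20 genes of 0.12 in pair 1, 0.23 in pair 2 and 0.035 in pair 3. In pair 2, 12 of the 65 bright probe sets were more than 0.15 lower with CMPF, from 10 genes, against 10 probe sets in pair 1 and 2 in pair 3, and 3 were at least 0.15 higher in pair 2. All 10 genes counted in pair 2 had another bright probe set that was not so low, among them Cycs, Atp5h, Atp5k and Cox6c. The probe sets of Cox7a2 gave gaps of 0.012, 0.01 and 0.0012 in the pairs. These genes and the limit of 0.15 were chosen after their values were seen.

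**Figure D5:**
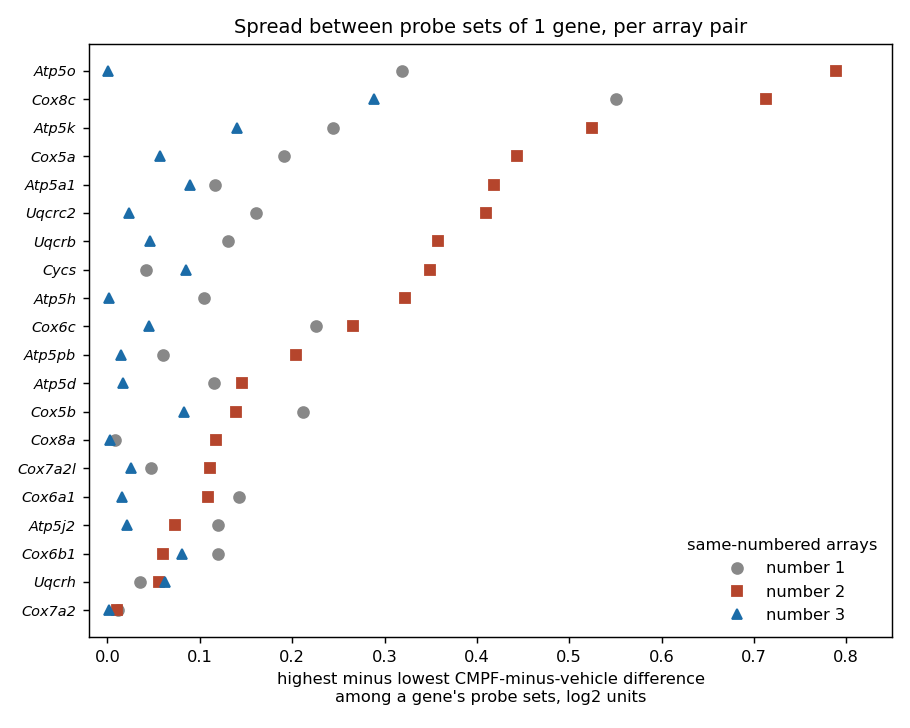
Highest minus lowest CMPF-minus-vehicle difference among the bright probe sets of a gene on the x axis (log2 units), for the 20 genes with several such probe sets on the y axis, by same-numbered array pair. The spread is widest in pair 2 for 14 of the genes and reaches 0.79 for Atp5o.

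Of the other genes of the pathway 0 were called by limma. Without overlap between the groups, 8 of 96 (8.33%) were lower and 0 higher, against 2.11% and 2.41% of all genes. Of the 9096 genes above the median level, 238 were lower and 89 higher without overlap. The assembly factors of complex III had a median of 0.02 (1 of 9 higher and 0 lower in all 3 pairs), and those of complex IV 0.01 (3 of 24 higher, 2 lower). By the smallest p these included Pmpcb, a processing peptidase (0.08, SE 0.0927), and Lyrm7, a chaperone of the Rieske protein (0.11, SE 0.174). For complex IV they were Cox15, which makes heme A (-0.20, SE 0.139), and Coa4 (0.12, SE 0.109). ATP synthase assembly factors and associated carriers had a median of -0.04 (1 of 8 higher, 2 lower). Slc25a4, which exchanges ADP for ATP across the inner membrane, read 11.64, 11.48 and 11.68 with CMPF and 11.79, 11.81 and 11.77 with vehicle, a difference of -0.19 (SE 0.0894; limma adjusted p = 0.99995). Its groups did not overlap, as for 2.11% of all genes on the lower side. Atpaf2, an assembly factor, differed by 0.15 (SE 0.101).

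Complex II had a median of -0.01, with Sdhaf2, its flavin assembly factor (-0.08, SE 0.0796), and Sdhd, a membrane anchor (-0.04, SE 0.0776), lower without overlap. Regulators of respiratory genes had a median of 0.0024. Tfam, which packs mitochondrial DNA and takes part in its transcription, read 8.22, 8.51 and 8.50 with CMPF and 8.56, 8.54 and 8.62 with vehicle. Its difference was -0.16 (SE 0.105) without overlap. Gabpb1, a subunit of the ETS factor GABP, differed by 0.09 (SE 0.0909). Genes with a symbol starting with Nduf, without Ndufaf, were taken as complex I by symbol alone. Ndufa4 and Ndufa4l2, both mixed in the pairs, were among them. The median of these genes was -0.03. With CMPF 15 of the 36 were lower in each of the 3 pairs while 0 were higher. The share lower was 11.1% over all genes and 14.7% over genes above the median level. Of the 44 genes described here, 5 were lower in all 3. Of complex I, Ndufb10 differed by -0.17 (SE 0.0816) and Ndufb6 by -0.22 (SE 0.122). Ndufb10, Ndufa12 (-0.06, SE 0.0785) and Ndufs3 (-0.04, SE 0.0776) were lower without overlap, as was Cox17, a copper chaperone of complex IV assembly (-0.05, SE 0.0765), and Ndufa12, Ndufs3 and Cox17 are named for that, after their values were seen. Whether these Nduf genes differ from the genes of the later complexes was not tested.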

How the data were processed

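The deposited values are log2 signals per probe set. The submitters' processing notes name RMA and Affymetrix Expression Console 1.1, without settings. RMA subtracts a modelled background, gives the arrays a common distribution and combines a set's probes, so differences of dim genes come out compressed. The table held 45101 probe sets, of which 64 were controls, 34945 were listed with 1 gene, 932 with several and 9160 with none. No value column lacked a sample (0 of 6). The number of arrays limits the precision.

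Each of 18193 genes was represented by its brightest single-gene probe set, without a filter. CMPF was compared with vehicle by limma 3.58.1 (lmFit and eBayes, two-sided; R 4.3.3), with Benjamini-Hochberg adjustment over all genes, threshold 0.05. The fit was tested on simulated data. Replicate numbers were taken to pair arrays from the data: same-numbered arrays deviated together from their group means (r = 0.538, 0.638 and 0.488 across genes). Other array pairs gave r between -0.555 and 0.0885. Deviations within a group cancel out, so positive values for same-numbered arrays push the others down. The low values of the other pairs are therefore not separate evidence of pairing. Values on each array are given for genes without overlap between the groups (0 found), the 4 smallest p per complex, and 19 genes listed by name, 28 in all. Other pathway lists give the 2 genes with the smallest p. The genes and lists were chosen with earlier results of these data known, and get no test of their own. Alternatives were the replicate block, leaving out arrays or pairs, other scalings, probe set choices, filters, array weights and an acinar covariate.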

Additional observations from a re-analysis of the deposited data

How the results depend on the processing

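The count of called genes was 0, over all genes and over the 44, under each of the 18 other settings, the replicate block included (0 called). The smallest adjusted p of any of the 28 genes given with their values was 0.978. Leaving out an array or a pair, the ATP synthase median ranged from -0.03085 to -3.5e-05 and complex IV minus ATP synthase from 0.0071 to 0.056. With median centring the complex IV median was -0.0054 and the ATP synthase median -0.046. The ATP synthase median was 0.0059 after a second quantile normalization and -0.0090 with the acinar covariate. Signs of differences turned, those of Uqcrc2, Cox5a and Cox8c among the largest of the 44, and the cause was not tested. With median centring these were Uqcrc1 (-0.011), Cox4i2 (-0.0018), Cox6a1 (-0.0092), Atp5g2 (-0.0033) and Atp5g3 (-0.019). After a second quantile normalization they were Uqcrfs1 (0.017), Cox4i1 (0.015), Cox6a1 (-0.0022), Atp5b (0.0059) and Atp5g3 (-0.00062). With probe set means they were Atp5a1 (-0.0072), Cycs (0.013), Cox6a1 (-0.024), Cox8a (0.0022) and Atp5g1 (0.013). With array weights it was Cox6a1 (-0.014), and with the acinar covariate Uqcrc1 (-0.021), Cox6a2 (-0.064) and Cox8b (0.064). With the second brightest probe set, an alternative chosen after seeing the data, they were Uqcrc2 (0.0073), Cox5a (0.038), Cox8c (-0.039), Atp5a1 (-0.054), Cycs (0.0019) and Cox6a1 (-0.064).

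Leaving out an array or a pair gave ranges that held 0 for 16 genes: Uqcr10 (-0.080 to 0.0088), Cyc1 (-0.017 to 0.053), Atp5h (-0.14 to 0.0082), Cycs (-0.18 to 0.019), Uqcrfs1 (-0.058 to 0.017), Uqcrc1 (-0.050 to 0.075), Cox4i1 (-0.051 to 0.018), Cox4i2 (-0.16 to 0.20), Cox6a1 (-0.033 to 0.054), Cox6a2 (-0.13 to 0.19), Cox7a1 (-0.044 to 0.27), Cox8a (-0.11 to 0.031), Cox8b (-0.12 to 0.13), Atp5g1 (-0.14 to 0.016), Atp5g2 (-0.022 to 0.077) and Atp5g3 (-0.014 to 0.021). In a window of 150 bases the NRF1 core was found at 8.33% of the 36 start sites, against 1.18% for the genes tested, and the ETS motif at 27.8%, against 9.78%.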
